A study of Homo sapiens with 8 samples.

Results

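The miR-17-92 cluster is a polycistron on human chromosome 13 whose single transcript is cut into several hairpins, each of which can yield a mature miRNA from its 5′ arm (5p) and its 3′ arm (3p). It was followed here through the 7 mature miRNAs of the cluster that were chosen by name, hsa-miR-17-5p, hsa-miR-17-3p, hsa-miR-18a-5p, hsa-miR-19a-3p, hsa-miR-19b-3p, hsa-miR-20a-5p and hsa-miR-92a-3p, out of 2006 human miRNAs on the array. The cells were 2 established breast cancer lines that carry many copies of the HER2 receptor gene. BT474 is labelled ER+, HER2+ and PR+, and SKBR3 is labelled ER-, HER2+ and PR+, although the methods of the study call SKBR3 PR-negative. Each line was grown for 144 h with 6 µg/mL trastuzumab, a therapeutic antibody against HER2, or with PBS as the vehicle, in 2 biological replicates. Total RNA was labelled with Cy3 and hybridized to single-colour miRNA arrays. The comparisons ask how the cluster stood after trastuzumab in each line, whether the response differed between the lines, and where the lines differed.

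The cluster was among the first miRNA loci to be called oncogenic, and it is amplified or strongly transcribed in several lymphomas and solid tumours. MYC and E2F factors activate its host gene MIR17HG, so that the cluster is often read as a mark of proliferating cells. Because all hairpins lie on one primary transcript, the levels of the mature miRNAs also depend on how each hairpin is processed and how stable each mature strand is, and hnRNP A1 is known to promote the processing of the miR-18a hairpin. The miR-17 and miR-20a family represses CDKN1A, BCL2L11 and E2F1, miR-92a represses BCL2L11, and miR-18a represses ESR1, the gene of the oestrogen receptor.

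In the GRCh38.p14 annotation of RefSeq, MIR17HG is a long non-coding RNA gene at chr13:91347687-91354577 on the + strand. Its 6 hairpins lie within 787 bases inside that gene, in the order MIR17 (chr13:91350605-91350688), MIR18A (chr13:91350751-91350821), MIR19A (chr13:91350891-91350972), MIR20A (chr13:91351065-91351135), MIR19B1 (chr13:91351192-91351278) and MIR92A1 (chr13:91351314-91351391). The mature sequences of the 7 members, all of which were found in the RefSeq table, are shown because their seeds set the families in which the values below are read. They run 5′ to 3′, and capitals mark the seed, bases 2 to 8, which pairs with target mRNAs.
hsa-miR-17-5p: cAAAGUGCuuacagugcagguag
hsa-miR-20a-5p: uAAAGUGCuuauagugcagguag
hsa-miR-18a-5p: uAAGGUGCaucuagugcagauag
hsa-miR-19a-3p: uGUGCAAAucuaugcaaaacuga
hsa-miR-19b-3p: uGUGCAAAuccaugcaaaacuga
hsa-miR-92a-3p: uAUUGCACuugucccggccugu
hsa-miR-17-3p: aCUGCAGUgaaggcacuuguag
The 7 members carry 5 distinct seeds. hsa-miR-17-5p and hsa-miR-20a-5p share a seed and 21 of 23 bases, and hsa-miR-19a-3p and hsa-miR-19b-3p share a seed and 22 of 23 bases. The mature hsa-miR-19b-3p and hsa-miR-92a-3p are also made from the hairpins MIR19B2 and MIR92A2 on chromosome X, so their signal could not be assigned to the chromosome 13 locus alone.

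Of the 8 arrays labelled, 7 held distinct values. The file labelled SKBR3 PBS replicate 1 repeats BT474 PBS replicate 1 byte for byte, and like the BT474 arrays it detects hsa-miR-200a-3p, hsa-miR-200b-3p and hsa-miR-429, which the other SKBR3 arrays do not. It was left out, so SKBR3 has 1 PBS array and 2 trastuzumab arrays. Every PBS sample was hybridized in row 2 of the slide and every trastuzumab sample in row 1, so treatment and row cannot be told apart. The BT474 arrays lie in columns 1 and 2 and the distinct SKBR3 arrays in columns 3 and 4, so line and column cannot be told apart either. The software detected 201 to 256 miRNAs per array, and 173 on all 7 arrays. The summed signal over all detected miRNAs was 446651 to 606660 on the BT474 arrays and 246495 to 320578 on the SKBR3 arrays. Of the epithelial miRNAs listed, hsa-miR-200c-3p and hsa-miR-141-3p were detected on all 7 arrays. The others, hsa-miR-200a-3p, hsa-miR-200b-3p and hsa-miR-429, were detected on every BT474 array and on no distinct SKBR3 array. The markers of leukocytes (4 miRNAs), mesenchymal cells (2) and liver (1) were detected on none. Of the red cell markers, hsa-miR-451a was detected on BT474 trastuzumab 2 and hsa-miR-486-5p on no array.

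All 7 members were detected on all 7 arrays, whereas 1699 of the 2006 miRNAs were detected on none. Each member has 30 spots per array, none of them saturated. On every array the software's sum for hsa-miR-17-3p holds 1 of its 2 probes, and no spot of the other probe was well above background. All spots of hsa-miR-19a-3p, hsa-miR-19b-3p, hsa-miR-20a-5p and hsa-miR-92a-3p were well above background, against 92.4% of those of hsa-miR-17-5p, 79.0% of those of hsa-miR-18a-5p and 41.4% of those of hsa-miR-17-3p. The members held 4.87% and 5.81% of the summed signal of all detected miRNAs on the BT474 PBS arrays and 5.05% and 5.31% on the BT474 trastuzumab arrays. Their share was 4.50% on SKBR3 PBS 2 and 4.38% and 4.37% on the SKBR3 trastuzumab arrays. The shares of the treatments overlapped in BT474, and every BT474 array lay above every SKBR3 array.

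Signals before any scaling are given in scanner units, the background-subtracted intensity summed over the probes of a miRNA that the software counted. The order is PBS 1, PBS 2, trastuzumab 1 and trastuzumab 2 for BT474 and PBS 2, trastuzumab 1 and trastuzumab 2 for SKBR3. The signal of hsa-miR-17-5p was 3703, 4929, 4183 and 5016 in BT474 and 1408, 1736 and 1620 in SKBR3. The signal of hsa-miR-20a-5p, its partner by seed, was 6628, 9414, 7634 and 9754 in BT474 and 3198, 4266 and 3935 in SKBR3. Both read higher on every BT474 array than on any SKBR3 array, and neither separated the treatments within BT474.

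Among the miR-19 pair, hsa-miR-19a-3p gave 2469, 3765, 2823 and 3553 in BT474 and 1465, 1795 and 1425 in SKBR3. hsa-miR-19b-3p gave 6462, 9359, 7947 and 10319 in BT474 and 3950, 4858 and 4265 in SKBR3. For hsa-miR-19b-3p the 4 BT474 arrays stood in the order of their summed signal over all detected miRNAs. hsa-miR-19a-3p did not follow that order and was brightest on PBS 2. By the median detected signal trastuzumab 1 (431) stood above PBS 2 (419), an order that hsa-miR-19b-3p did not follow.

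hsa-miR-18a-5p, from the hairpin that follows MIR17, gave 465, 708, 417 and 559 in BT474 and 239, 273 and 174 in SKBR3. It was highest on BT474 PBS 2. hsa-miR-92a-3p, from the last hairpin, gave 1835, 2412, 2396 and 2745 in BT474 and 761, 1012 and 938 in SKBR3. hsa-miR-17-3p, the weaker arm of the first hairpin, gave 173, 228, 212 and 266 in BT474 and 68.0, 113 and 73.8 in SKBR3. All 7 members were thus higher on every BT474 array than on any SKBR3 array in scanner units, as were 44.9% of all miRNAs tested, while the total signal differs between the lines too. In BT474 0 members separated the treatments in scanner units, against 50.9% of the miRNAs tested.

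The signals were then quantile normalized over the 7 distinct arrays, raised to a floor of 10 where they were lower, and put on the log2 scale. On this scale a miRNA is read against all others on the array, and the values below are log2 levels. In RNA from a whole culture, fewer cells with a miRNA and less of it per cell cannot be told apart.

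**Figure D1:**
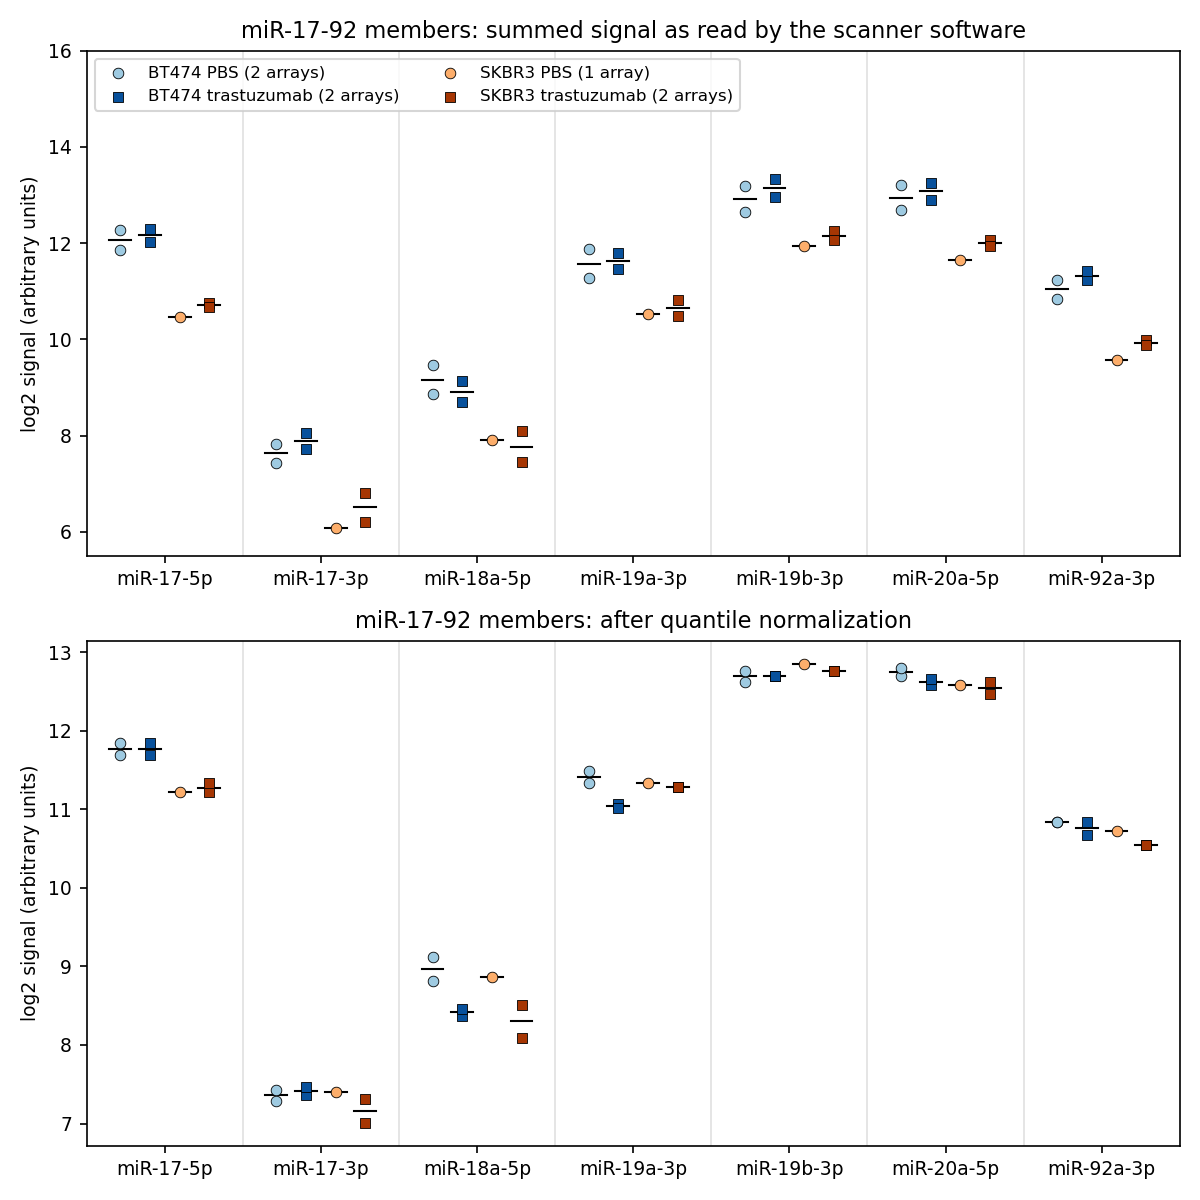
Log2 signal (vertical axis) of each of the 7 members on the 7 distinct arrays, with points for single arrays grouped by cell line and treatment. The upper panel shows the summed signal before normalization and the lower panel the signal after quantile normalization. In the lower panel, hsa-miR-18a-5p lies at 8.81 and 9.12 on the BT474 PBS arrays, above both BT474 trastuzumab arrays. There hsa-miR-17-5p lies higher on the 4 BT474 arrays than on the 3 SKBR3 arrays.

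In BT474, no member passed the test after trastuzumab, and the members nearest to it, hsa-miR-18a-5p and hsa-miR-19a-3p, both read lower on the trastuzumab arrays. hsa-miR-18a-5p had log2 levels of 8.81 and 9.12 with PBS and 8.37 and 8.46 with trastuzumab. Its groups did not overlap, and the difference was -0.54 (SE 0.14, 95% interval -1.01 to -0.08), a fold of 0.685, with an unadjusted p of 0.0347 and an adjusted p of 0.111 in the limma fit. hsa-miR-19a-3p had levels of 11.33 and 11.49 with PBS and 11.06 and 11.02 with trastuzumab. Its groups did not overlap either, and the difference was -0.37 (SE 0.09, 95% interval -0.65 to -0.09), a fold of 0.773, with an unadjusted p of 0.0249 and an adjusted p of 0.0945, while without scaling between the arrays it was 0.06.

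The other 5 members differed by less. hsa-miR-17-5p read 11.69 and 11.85 with PBS and 11.85 and 11.69 with trastuzumab, a difference of 0.00 (SE 0.11, 95% interval -0.35 to 0.35). hsa-miR-20a-5p, with the same seed, read 12.69 and 12.80 with PBS and 12.59 and 12.66 with trastuzumab, a difference of -0.12 (SE 0.07) with an adjusted p of 0.370 by limma. Its groups were apart by a margin smaller than the difference between its PBS arrays.

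hsa-miR-19b-3p, which differs from hsa-miR-19a-3p at a single base, read 12.62 and 12.77 with PBS and 12.69 on both trastuzumab arrays, a difference of 0.00 (95% interval -0.26 to 0.27). hsa-miR-92a-3p read 10.84 on both PBS arrays and 10.84 and 10.67 with trastuzumab, a difference of -0.09 (95% interval -0.38 to 0.20). hsa-miR-17-3p read 7.29 and 7.43 with PBS and 7.36 and 7.46 with trastuzumab, a difference of 0.05 (95% interval -0.24 to 0.35). For these members the treatments overlapped or touched.

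A miRNA was called at a Benjamini-Hochberg adjusted p under 0.05 over all miRNAs tested. In BT474, 0 of 7 members were called by limma, against 14.4% of the 285 miRNAs tested. At an unadjusted p under 0.05 stood 2 members and 104 of the 285 miRNAs. The study's own rule, an unadjusted p under 0.05 and a fold above 2, took 0 members and 14% of the miRNAs tested, and the methods' t-test called 0 members. The groups did not overlap for 3 of 7 members, all lower with trastuzumab, against 58.2% of all miRNAs tested and 27.7% in that direction. The median difference was -0.09 over the members and 0.00 over all tested. The call for hsa-miR-19a-3p depended on the variance model, with adjusted p of 0.0441 by limma with an intensity trend and 0.0349 with the spread taken from the 7 arrays.

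In SKBR3, too, no member passed the test, and the precision is lower because a lone PBS array stands for its group and was assumed to vary like the trastuzumab arrays. hsa-miR-18a-5p read 8.87 on the PBS array and 8.51 and 8.09 with trastuzumab, a difference of -0.56 (SE 0.30, 95% interval -2.44 to 1.32), a fold of 0.677, with an adjusted p of 0.440 by limma. This was the lowest difference among the members in SKBR3, as it was in BT474, and its interval covers both directions. On SKBR3 trastuzumab 2 the software's sum for this miRNA holds 1 of its 2 probes. With both probes summed on every array, an alternative chosen after seeing the data, the difference was -0.39 (adjusted p 0.179).

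hsa-miR-92a-3p read 10.72 with PBS and 10.55 on both trastuzumab arrays, a difference of -0.17 (SE 0.02, 95% interval -0.27 to -0.08), with an unadjusted p of 0.0208 and an adjusted p of 0.115. Its 2 trastuzumab values are identical because quantile normalization gives equal ranks equal values, and the same holds for hsa-miR-19a-3p and hsa-miR-19b-3p, so the SE of these 3 members rests on the spread that limma borrows from the other miRNAs. The direction of hsa-miR-92a-3p turned with the scaling, with a difference of 0.18 after scaling to the 75th percentile and 0.36 without scaling. hsa-miR-19b-3p read 12.85 with PBS and 12.77 on both trastuzumab arrays, a difference of -0.09 (adjusted p 0.166 by limma). hsa-miR-19a-3p read 11.33 with PBS and 11.29 on both trastuzumab arrays, a difference of -0.04 (95% interval -0.14 to 0.05).

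The miR-17 seed pair lay close to 0 in SKBR3. hsa-miR-17-5p read 11.22 with PBS and 11.22 and 11.33 with trastuzumab, a difference of 0.06 (95% interval -0.47 to 0.59). hsa-miR-20a-5p read 12.59 with PBS and 12.47 and 12.62 with trastuzumab, a difference of -0.05 (95% interval -0.73 to 0.64). hsa-miR-17-3p read 7.41 with PBS and 7.32 and 7.01 with trastuzumab, a difference of -0.24 (SE 0.22, 95% interval -1.60 to 1.12), which was above 0 under 5 of 15 alternatives and reached 0.42 without scaling. In SKBR3, 0 of 7 members were called by limma against 6.61% of the 227 miRNAs tested, and 1 member and 68 miRNAs stood at an unadjusted p under 0.05. The study's rule took 0 members against 11.5%, and the methods' t-test called 0 members. The groups did not overlap for 5 of 7 members, all lower with trastuzumab, against 70.9% of all miRNAs tested and 48.5% in that direction. This direction depended on the scaling. With the 75th percentile 3 members were higher and 2 lower without overlap, against 72.2% in either direction. One of those lower is hsa-miR-19a-3p, whose own signal is the 75th percentile on both trastuzumab arrays, so its equal values there come from the scaling. Without scaling 5 were higher and 0 lower, against 79.3% in either direction and 71.8% higher. The median difference was -0.09 both over the members and over all tested.

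**Figure D2:**
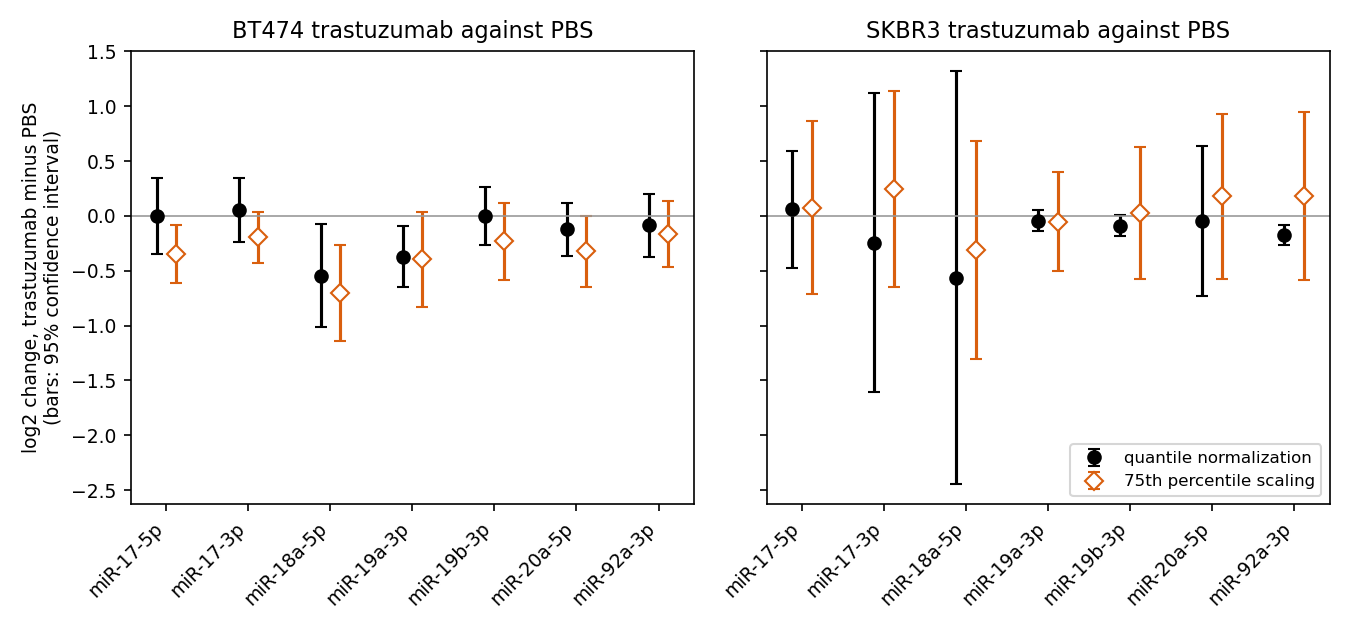
Difference in normalized log2 signal between trastuzumab and PBS for each member in BT474 and SKBR3, with 95% intervals from limma as bars. hsa-miR-18a-5p has the lowest difference in both lines, -0.54 in BT474 and -0.56 in SKBR3, and no member reached an adjusted p under 0.05.

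The test of whether the response differed between the lines called 0 of 7 members, against 16.1% of the 305 miRNAs tested by limma. The response of hsa-miR-19a-3p, BT474 minus SKBR3, differed by -0.33 (SE 0.11), with an unadjusted p of 0.0450 and an adjusted p of 0.154. It was the only member under an unadjusted p of 0.05, where 92 of all miRNAs stood. After quantile normalization the responses differed by 0.02 (95% interval -0.86 to 0.90) for hsa-miR-18a-5p and by 0.30 (95% interval -0.30 to 0.90) for hsa-miR-17-3p. For the other 4 members they differed by -0.08 to 0.09. These differences depended on the scaling, as given below. Without BT474 PBS replicate 1, hsa-miR-19a-3p was called at -0.39 (adjusted p 0.0363).

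How far the cluster as a whole seemed to move depended on the scaling. So did the difference in response, BT474 minus SKBR3. With the 75th percentile it lay between -0.50 (hsa-miR-20a-5p) and -0.26 (hsa-miR-19b-3p) for the members. It was -0.39 for hsa-miR-18a-5p and -0.44 for hsa-miR-17-3p. The median of the 173 miRNAs found on all 7 arrays was -0.41 in that comparison, against 0.09 after quantile normalization. After scaling to the 75th percentile of the detected miRNAs, all 7 members read lower with trastuzumab in BT474 without overlap, by 0.17 to 0.70 on the log2 scale, but 56.8% of all miRNAs tested did so as well, or 75.4% counting both directions. On this scale 0 members were called by limma, with 3 at an unadjusted p under 0.05, against 20.2% called of the miRNAs tested. The median difference of the 173 miRNAs found on all 7 arrays was itself -0.23 on that scale, 0.22 without scaling and 0.00 after quantile normalization. Relative to that median, the members' median was -0.09 after quantile normalization and -0.10 under each of the other scalings. Those other scalings give the same value by construction, because the 75th percentile divides each array by a single factor. Without scaling, hsa-miR-18a-5p gave -0.13 in SKBR3, with 1 of its 2 probes in the sum on trastuzumab 2. With both probes its scanner signals there were 239 with PBS and 273 and 222 with trastuzumab, on either side of PBS. Some alternatives change only the floor, the filter, the variance model or the test, and these repeat the main difference with its sign. hsa-miR-18a-5p was below 0 in BT474 under each of the 17 alternatives tried, from -0.70 to -0.25, and in SKBR3 under each of 15, from -0.77 to -0.13. It was called under none of them, with adjusted p of 0.0553 to 0.700 in BT474 and 0.179 to 0.831 in SKBR3.

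A reading that needs no scaling between arrays sets each member against the mean log2 signal of the 7 members on the same array, so that it shows whether the composition of the cluster differed. On this measure hsa-miR-18a-5p stood at -1.94 and -1.83 on the BT474 PBS arrays and at -2.30 and -2.20 with trastuzumab. In SKBR3 it stood at -1.83 with PBS and at -2.02 and -2.37 with trastuzumab. The groups did not overlap in either line, and the difference was -0.36 in each. With both probes summed on every array it was -0.36 in BT474 and -0.20 in SKBR3. hsa-miR-92a-3p stood higher with trastuzumab on this measure, by 0.17 in BT474 and 0.13 in SKBR3, and hsa-miR-17-3p by 0.14 and 0.20, both without overlap in each line. With both probes summed, hsa-miR-17-3p stood higher by 0.11 in SKBR3 and its treatments overlapped there.

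The ratio of hsa-miR-92a-3p to hsa-miR-18a-5p, the quotient of their scanner signals, was 3.95 and 3.41 on the BT474 PBS arrays and 5.74 and 4.91 with trastuzumab. In SKBR3 it was 3.19 with PBS and 3.71 and 5.40 with trastuzumab, and the last of these is 4.22 when both probes of hsa-miR-18a-5p are summed. The treatments did not overlap in either line, with or without that probe. On the same measure 3 members were higher and 1 lower without overlap in BT474, against 64.7% of the 173 miRNAs in either direction, and 3 higher and 2 lower in SKBR3, against 72.8%. These shares are near or below the background, and no test across arrays was made of this measure.

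**Figure D3:**
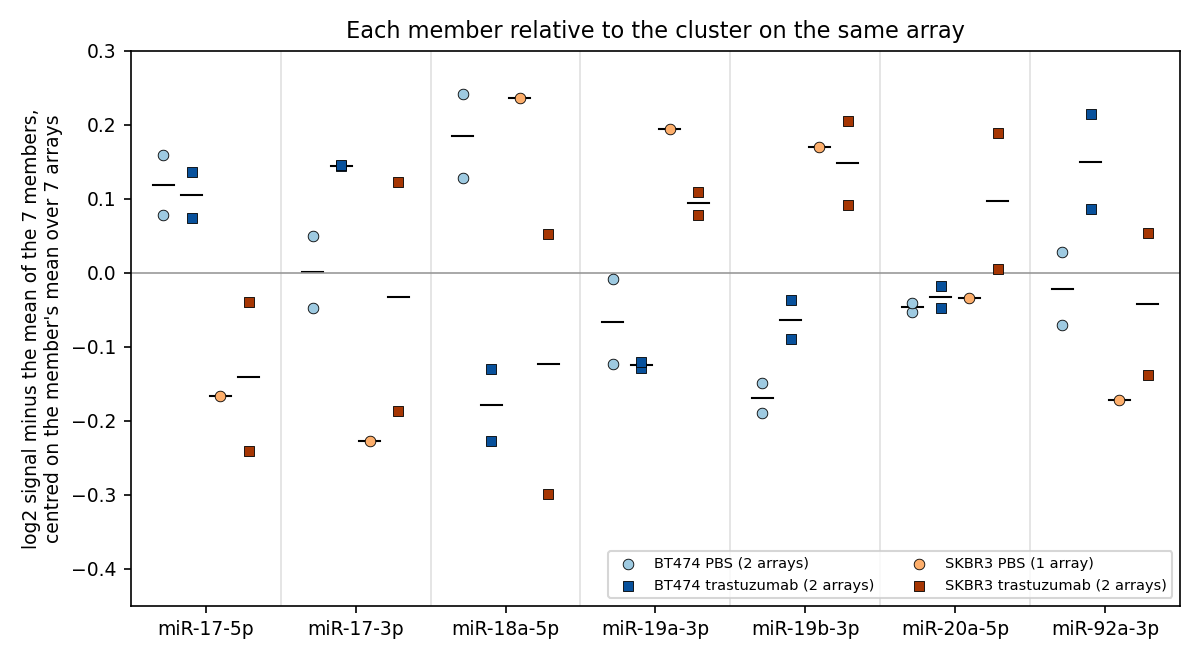
Log2 signal of each member minus the mean log2 signal of the 7 members on the same array (vertical axis). Each member is also centred on its own mean over the 7 arrays. Points are the 7 distinct arrays by line and treatment. hsa-miR-18a-5p lies lower on the trastuzumab arrays of both lines, by -0.36 as plotted, a difference that is -0.20 in SKBR3 with both of its probes summed.

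The 2 probes of hsa-miR-18a-5p read the same way in BT474. Scaled to the 75th percentile they gave differences of -0.58 and -0.74 between trastuzumab and PBS, and in the log2 values that the authors deposited per probe they gave -0.30 and -0.49. In SKBR3 they gave 0.13 and -0.20 when scaled and -0.12 and -0.52 in the deposited values, so the probes disagreed in direction on the first scale. The 2 probes of hsa-miR-19a-3p gave -0.42 and -0.36 in BT474 when scaled and -0.27 and -0.20 in the deposited values.

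Between the lines, with the treatments averaged, hsa-miR-17-5p was the only member called under the main setting. Its log2 levels were 11.69 to 11.85 on the BT474 arrays and 11.22 to 11.33 on the SKBR3 arrays, without overlap. It was higher in BT474 by 0.52 (SE 0.08, 95% interval 0.30 to 0.74), 1.44-fold, with an adjusted p of 0.00611 by limma. It was higher in BT474 under each of 19 alternatives and called under 18 of them. The exception was the fit that kept the copied array under its SKBR3 label, with a difference of 0.42 (adjusted p 0.0965). The alternatives that change only the floor, the filter or the variance model repeat the main difference with its sign.

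The other members did not reach the threshold. hsa-miR-92a-3p was next, with a difference of 0.17 (SE 0.06), an unadjusted p of 0.0487 and an adjusted p of 0.0669 by limma. hsa-miR-20a-5p, which shares the seed of hsa-miR-17-5p, differed by 0.12 (95% interval -0.06 to 0.30), hsa-miR-18a-5p by 0.11 (95% interval -0.33 to 0.55) and hsa-miR-17-3p by 0.10 (95% interval -0.20 to 0.40). The miR-19 pair read slightly lower in BT474, hsa-miR-19a-3p by -0.08 (95% interval -0.24 to 0.07) and hsa-miR-19b-3p by -0.12 (95% interval -0.27 to 0.03), whereas without scaling they stood at 1.02 and 0.98. In all, 1 of 7 members was called, against 68.5% of the 305 miRNAs tested, and 33.4% were called higher in BT474. The study's rule took 0 members against 46.2%. The groups did not overlap for 1 of 7 members, against 57.4%. Ranked by absolute difference among the miRNAs tested, hsa-miR-17-5p stood at percentile 25.2 and the other members at percentiles 3.93 to 8.52.

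The differences between the lines depended on the scaling. In scanner units the signal was 2.80-fold higher in BT474 for hsa-miR-17-5p, 2.63-fold for hsa-miR-17-3p, 2.59-fold for hsa-miR-92a-3p, 2.34-fold for hsa-miR-18a-5p, 2.19-fold for hsa-miR-20a-5p, 2.00-fold for hsa-miR-19a-3p and 1.93-fold for hsa-miR-19b-3p. The median log2 difference of the 173 miRNAs detected on every array was 0.71 without scaling, -0.20 with the 75th percentile and -0.42 after quantile normalization. Relative to that median, the members' median was 0.50 without scaling, 0.50 with the 75th percentile and 0.52 after quantile normalization. All 7 members lay above it under each of these scalings. The values without scaling and with the 75th percentile are equal by construction, because that percentile divides each array by a single factor. With mean spot signals the members' median stood at 0.40 on this measure, with 7 members above. With normexp background correction it stood at 0.32, with 6 members above. With the 75th percentile, 3 of 7 members were called higher in BT474 by limma, against 70.7% called in either direction. They were hsa-miR-17-5p by 0.62 (adjusted p 0.00487), hsa-miR-17-3p by 0.56 (adjusted p 0.00780) and hsa-miR-92a-3p by 0.52 (adjusted p 0.00867).

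**Figure D4:**
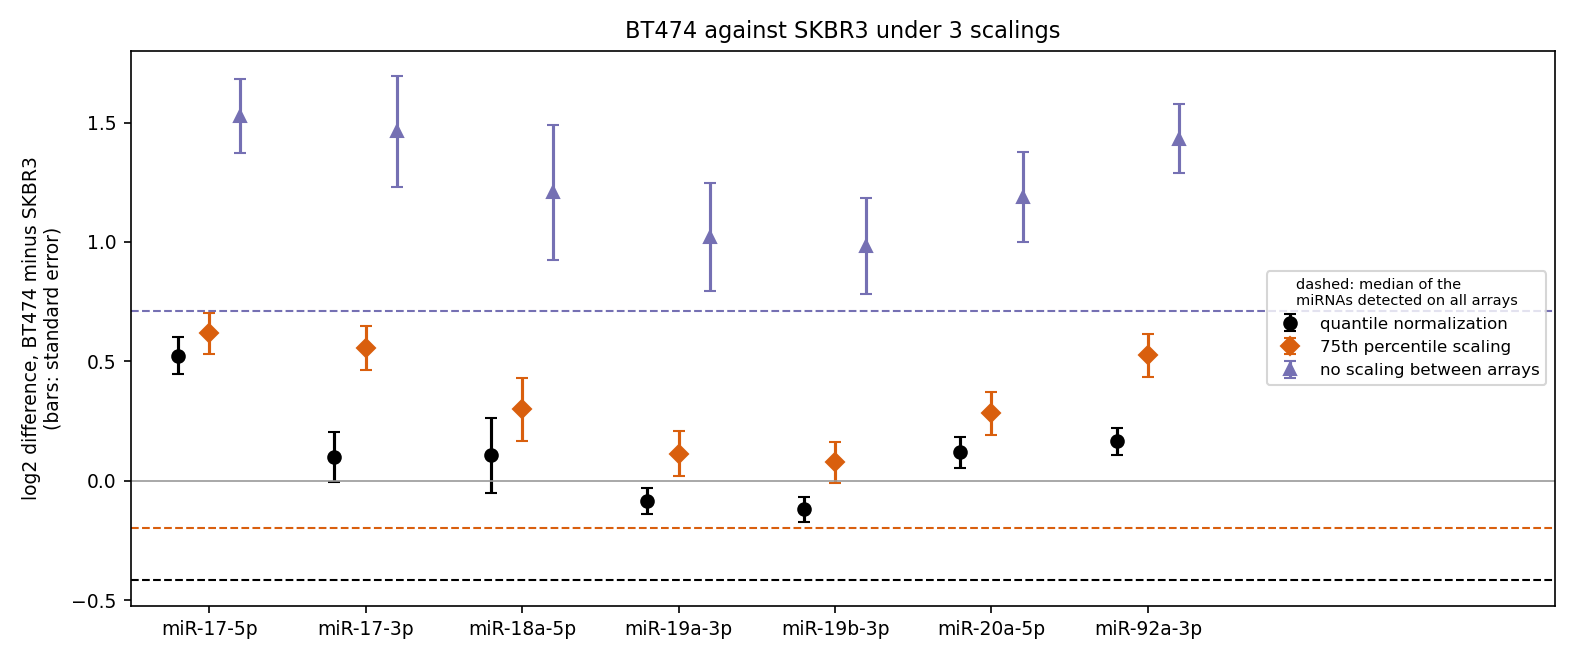
Log2 difference between the BT474 and SKBR3 arrays for each member under quantile normalization, scaling to the 75th percentile and no scaling, with the median of the 173 miRNAs detected on every array as a line for each. All 7 members lie above the median of their own scaling, while the sign for the miR-19 pair changes, from -0.08 for hsa-miR-19a-3p after quantile normalization to 1.02 without scaling. No scaling and the 75th percentile place the members equally far from their median by construction.

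The lines were also set side by side within the cluster, with no test across arrays. Relative to the mean of the members on the same array, hsa-miR-17-5p stood at 0.97 to 1.05 in BT474 and 0.65 to 0.85 in SKBR3, while hsa-miR-19a-3p stood at 0.46 to 0.58 and 0.67 to 0.79, and hsa-miR-19b-3p at 1.86 to 2.01 and 2.14 to 2.25. The ratio of hsa-miR-17-5p to hsa-miR-19a-3p was 1.31 to 1.50 on the BT474 arrays and 0.961 to 1.14 on the SKBR3 arrays. The ratio of hsa-miR-20a-5p to hsa-miR-17-5p was 1.79 to 1.94 and 2.27 to 2.46. On this measure 1 member was higher and 2 were lower in BT474 without overlap, against 67.6% of the 173 miRNAs, a share above that of the members.

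The other arms of the same hairpins were mostly not detected. Of 5 on the array, hsa-miR-18a-3p, hsa-miR-19a-5p, hsa-miR-20a-3p and hsa-miR-92a-1-5p were detected on no array. hsa-miR-19b-1-5p was detected on 3 BT474 arrays, at scanner signals of 23.7 on PBS 1, 29.2 on PBS 2 and 25.1 on trastuzumab 1, and not on BT474 trastuzumab 2 or any SKBR3 array. Its normalized difference in BT474 was 0.04, and it was not called.

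Paralogous loci make miRNAs with the same seeds, and target repression by a seed family depends on the sum of its members. Of 9 such miRNAs listed, 8 were matched on the array by name and 5 were detected on all 7 arrays, while hsa-miR-363-3p, hsa-miR-32-5p and hsa-miR-92b-3p were detected on none and hsa-miR-106a-5p is not analysed here. Those detected are shown with their seeds in capitals, for comparison with the members above.
hsa-miR-20b-5p: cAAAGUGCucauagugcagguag
hsa-miR-106b-5p: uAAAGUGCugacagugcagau
hsa-miR-93-5p: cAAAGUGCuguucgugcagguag
hsa-miR-18b-5p: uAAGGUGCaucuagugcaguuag
hsa-miR-25-3p: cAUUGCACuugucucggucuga
hsa-miR-18b-5p shares 22 of 23 bases with hsa-miR-18a-5p. The miRNA left out of the analysis, hsa-miR-106a-5p, shares 22 of 23 with hsa-miR-17-5p, and hsa-miR-20b-5p shares 21 of 23 with it. Whether the probes of one miRNA of such a pair also bind the other was not tested.

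After trastuzumab, 0 of these 5 were called by limma in either line, against 14.4% of all miRNAs tested in BT474 and 6.61% in SKBR3. hsa-miR-18b-5p gave scanner signals of 151, 229, 144 and 170 in BT474 and 79.6, 88.5 and 75.8 in SKBR3. In SKBR3 hsa-miR-18b-5p thus read on either side of its PBS signal before normalization, so its direction there rests on the normalization. Its normalized difference was -0.45 (SE 0.19, adjusted p 0.235) in BT474 and -0.56 (SE 0.03, adjusted p 0.0866) in SKBR3, the lowest of the 5 in each line, as hsa-miR-18a-5p was among the members. In BT474 hsa-miR-93-5p differed by -0.28 (adjusted p 0.161), and hsa-miR-106b-5p, hsa-miR-20b-5p and hsa-miR-25-3p by -0.13, -0.12 and 0.07. In SKBR3 the 4 others lay between -0.14 and 0.01. The ratio of hsa-miR-18a-5p to hsa-miR-18b-5p was 2.90 to 3.28 on the BT474 arrays and 2.29 to 3.08 on the SKBR3 arrays, with the lowest value on SKBR3 trastuzumab 2, where the sum of hsa-miR-18a-5p lacks a probe. With all probes of both summed it was 2.83 to 3.12 in BT474 and 2.53 to 2.89 in SKBR3, lowest on SKBR3 PBS 2. The 3 that carry the seed of hsa-miR-17-5p were called higher in BT474 than in SKBR3, hsa-miR-106b-5p by 0.30 (adjusted p 0.0483), hsa-miR-20b-5p by 0.27 (adjusted p 0.0462) and hsa-miR-93-5p by 0.23 (adjusted p 0.0355), against 33.4% of all miRNAs tested. These calls held under 8, 7 and 9 of 19 alternatives, and with the copied array kept the adjusted p was 0.203, 0.191 and 0.402. Leaving out any SKBR3 array ended all 3 calls (adjusted p 0.0899 to 0.418), leaving out either BT474 trastuzumab array ended those of hsa-miR-106b-5p and hsa-miR-20b-5p (0.0732 to 0.113), and leaving out either BT474 PBS array ended that of hsa-miR-93-5p (0.0672 and 0.0941). hsa-miR-18b-5p differed by -0.29 (adjusted p 0.128) and hsa-miR-25-3p by -0.05.

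MYC activates the cluster and represses a known group of other miRNAs, 22 of which were listed, and 20 of these were detected. In BT474, 2 of them were called higher after trastuzumab and 0 lower by limma, against 8.42% of all miRNAs called higher. The pair is hsa-miR-29a-3p, with a difference of 0.89 (adjusted p 0.0327), and hsa-miR-29c-3p, named after its value was seen, with 0.65 (adjusted p 0.0362). The call of hsa-miR-29a-3p held under 7 of 17 alternatives and that of hsa-miR-29c-3p under 8, and both were lost with the replicate block (adjusted p 0.126 and 0.142), with mean spot signals, with all probes summed and with the deposited values. Leaving out either BT474 PBS array also ended both calls, with adjusted p of 0.160 to 0.166, and leaving out either BT474 trastuzumab array ended that of hsa-miR-29a-3p (0.0721 and 0.0707). Both belong to a family that represses collagens and DNA methyltransferases. The lowest was hsa-miR-99b-5p at -0.23 (adjusted p 0.101), and the median of the list was 0.24. Over all miRNAs tested the median was 0.00 in BT474 and -0.09 in SKBR3. The medians of the list were taken after quantile normalization alone. In SKBR3, 0 of the list were called. The highest was hsa-miR-195-5p at 0.42 (adjusted p 0.259), the lowest hsa-miR-125a-5p at -0.20 (adjusted p 0.166), and the median was 0.00. The response of hsa-miR-29a-3p was higher in BT474 than in SKBR3 by 0.68 and that of hsa-miR-29c-3p by 0.51, each with an adjusted p of 0.0410 by limma, against 9.84% of all miRNAs called higher in that test. These calls held under 7 and 6 of 16 alternatives, and with the copied array kept the differences were -0.53 and -0.29. Leaving out either BT474 PBS array or either SKBR3 trastuzumab array ended both calls (adjusted p 0.0761 to 0.134). Between the lines, 6 of the list were called higher and 8 lower in BT474, against 33.4% and 35.1% of all miRNAs.

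The miRNAs whose profile over the 7 arrays lay closest to the mean profile of the members were found among 166 others by root mean square distance of centred log2 levels. They were hsa-miR-99b-5p at 0.0577, hsa-miR-20b-5p at 0.0907, hsa-let-7a-5p at 0.0926, hsa-miR-93-5p at 0.0961 and hsa-miR-324-3p at 0.101. Of these, hsa-miR-20b-5p and hsa-miR-93-5p carry the seed of hsa-miR-17-5p, and hsa-miR-99b-5p and hsa-let-7a-5p are on the list of miRNAs that MYC represses.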

How the data were processed

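Total RNA was measured on single-colour arrays. According to the labels and methods, the authors deposited the scanner output as intensity values from Agilent Feature Extraction, background-subtracted and summed per miRNA, with no normalization between arrays. The software's other columns, flags for detection, were used as deposited. The log2 values deposited by the authors hold 1 value per probe, were quantile normalized in BRB Array Tools and served as an alternative. Here the summed intensity was quantile normalized over the 7 distinct arrays, floored at 10 and put on the log2 scale. Each line was fitted alone by lmFit and eBayes of limma 3.58.1, run in R 4.3.3. The lines, and the difference in response, were fitted on group means over the 7 arrays. A miRNA that never exceeded the floor in a fit was not tested. Calls used a Benjamini-Hochberg adjusted p under 0.05 over all miRNAs tested. Unadjusted p-values were also counted, as was the study's rule (p under 0.05 and fold above 2).

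Groups were taken from the labels, which name biological replicates. The number of arrays limits the precision. The members and the lists of other arms, same-seed miRNAs and MYC-repressed miRNAs were chosen with earlier results of these data known. Named were all members, other arms detected on an array, same-seed miRNAs detected on all 7 arrays, the highest and lowest MYC-repressed miRNA within each line, and the 5 miRNAs most like the members. Sequences and coordinates came from RefSeq (GRCh38.p14). The fits were tested on simulated data. Alternatives covered scaling, floor, detection filter, background correction (normexp, offset 50), probe summary, variance model, replicate block, the copied array and leaving out each array.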

Additional observations from a re-analysis of the deposited data

How the results depend on the processing

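The count of members called in BT474 was 1 with an intensity trend and 1 with the spread taken from the 7 arrays, both for hsa-miR-19a-3p, against 0 otherwise. Between the lines it was 1 in the main setting, 3 with the 75th percentile, 7 without scaling, 2 with only miRNAs detected on every array, 4 with normexp, 2 with an intensity trend, 0 with the copied array kept, 2 on the trastuzumab arrays alone, and 1 to 3 when arrays were left out in turn. For the difference in response it was 0 to 1 when arrays were left out, the call being hsa-miR-19a-3p without BT474 PBS replicate 1. Among differences with an unadjusted p under 0.05 on either scale, signs turned without scaling for hsa-miR-19a-3p in BT474 (0.0552), for hsa-miR-92a-3p in SKBR3 (0.36, and 0.18 with the 75th percentile) and for hsa-miR-19a-3p and hsa-miR-19b-3p between the lines (1.02 and 0.98). Smaller differences turned too without scaling, in BT474 for hsa-miR-20a-5p (0.13) and hsa-miR-92a-3p (0.29), and in SKBR3 for hsa-miR-17-3p (0.42), hsa-miR-20a-5p (0.36), hsa-miR-19b-3p (0.20) and hsa-miR-19a-3p (0.13). The cause was not tested.

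Over all miRNAs, calls by limma in BT474 (41) came to 19 without scaling, 104 with normexp, 74 with the spread of 7 arrays, 3 by the methods' t-test, 25 to 36 when arrays were left out, and 0 with mean spot signals (186 at an unadjusted p under 0.05), with all probes summed (176), with the authors' deposited log2 values (181) and with the replicate block (73). In SKBR3 (15) they came to 47 with normexp, 36 with the spread of 7 arrays, 3 with the copied array kept, 20 to 42 when trastuzumab arrays were left out, and 0 with the 75th percentile (43 at an unadjusted p under 0.05), detected miRNAs alone (60), mean spot signals (267), all probes summed (218), the deposited log2 values (144) and the methods' t-test (22). Between the lines (209) they came to 408 with normexp, 342 with mean spot signals, 387 with all probes summed, 6 with the copied array kept and 187 to 206 when arrays were left out. For the difference in response (49) they came to 25 without scaling, 23 with detected miRNAs alone, 88 with normexp, 76 with mean spot signals, 109 with all probes summed, 5 with the copied array kept and 29 to 74 when arrays were left out.

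The share of calls that were higher was 58.5% in BT474 after quantile normalization, 39.7% with the 75th percentile and 47.4% without scaling. It was 46.7% in SKBR3 and 62.5% without scaling, 48.8%, 57.1% and 88.7% between the lines, and 61.2%, 31.4% and 44.0% for the difference in response. BT474 holds only 2 numbered pairs, whose deviations from the group means correlated at 0.297 over 173 miRNAs. This does not settle whether the numbers pair the arrays. In BT474 both replicate 1 arrays lie in slide column 2 and both replicate 2 arrays in column 1. The main fits did not pair the arrays, and the replicate block was kept as an alternative. With the replicate block 0 members were called in BT474, 1 between the lines (of 196 miRNAs called) and 0 for the difference in response (of 22). No paired analysis was possible in SKBR3 because its distinct arrays share only replicate number 2. SKBR3 PBS 2 could not be left out within SKBR3 or for the difference in response, since no PBS array remains. Left-out fits in SKBR3 take the spread from both lines, and the sum over all probes and quantile normalization within a line were chosen after seeing the data.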

Other observations

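hsa-miR-19a-5p, the other arm of MIR19A, was detected by the software on no array, yet 1 of its probes had a deposited log2 value of 10.14 on SKBR3 PBS 2, against 4.57 to 5.67 on the other distinct arrays. On that array the probe has 8 spots, the highest of which read 6033 in background-subtracted intensity, the next 211, and the median -2.94. On the same array, 1 spot of a probe of hsa-miR-20a-3p read 2313, with the next at 189, and 1 spot of a probe of hsa-miR-18a-3p read 790, with the next at 89.2. Both of these arms were also detected on no array.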
